A study of Homo sapiens with 4 samples.

Results

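The 14-3-3 proteins are a family of small adaptor proteins encoded in human cells by 7 genes: YWHAQ (theta), YWHAB (beta), YWHAE (epsilon), YWHAG (gamma), YWHAH (eta), YWHAZ (zeta) and SFN (sigma, or stratifin). The members were taken by symbol from a deposited table of 35820 genes. Of the 7 symbols, 5 had a row and all 5 of these passed the filter on low counts, which 12269 genes passed in all. YWHAG and SFN had no row under these symbols and were not analysed here. The family was chosen by the estimated counts of YWHAQ, which were lower in the knockout than in wild type, with the question of whether another isoform was higher there. The difference in YWHAQ is therefore given as a description without a test, and only the other 4 measured members carry test results.

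The study compared wild-type (WT) HCT116, a human colon cancer cell line, with a knockout (KO) of TOP3B in the same line, and each group had 2 libraries of ribosome-depleted total RNA. TOP3B is a topoisomerase that acts on RNA as well as DNA, and the series asks what its loss does to transcription and to R-loops, in which nascent RNA pairs with its DNA template. The KO cells were 1 clone, E2-4, obtained by CRISPR with a guide against exon 2, so the clone and the genotype cannot be told apart. Both groups were grown in the same medium with no further treatment named in the labels. Nothing in the labels says that libraries of a group were separate cultures, and p-values thus measure only the spread between these libraries. In bulk RNA, fewer cells of a kind and less RNA per cell cannot be told apart.

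14-3-3 proteins work as dimers, homodimers or heterodimers, whose grooves hold short phosphorylated serine or threonine motifs of client proteins. Binding hides localisation signals, blocks enzyme sites or holds a client in the cytoplasm, and it acts in this way on RAF kinases, CDC25 phosphatases, FOXO factors, the apoptosis protein BAD and YAP. The isoforms overlap widely in their clients. Epsilon mainly forms heterodimers and sigma mainly homodimers. Sigma, restricted to epithelial cells and induced by DNA damage, is known for its role in the G2 checkpoint of colon cancer cells, HCT116 among them.

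The libraries held 10450048 to 16143634 estimated counts. TOP3B RNA was still present in the KO clone, at 57.1 and 66.5 CPM (counts scaled to library size) in WT replicates 1 and 2 and at 43.9 and 54.7 CPM in KO replicates 1 and 2, and such a level does not check a small exon lesion. Of the tested genes, 8.29% differed by more than 2-fold within the WT pair and 6.66% within the KO pair. WT replicate 1 had a scaling factor (TMM, which corrects for differences in RNA composition) of 0.858 against 1.04 to 1.06 in the others, and it stood apart from WT replicate 2 for several genes below. The summed level of 8 colon epithelial markers was 2584 and 2117 CPM in WT and 1522 and 1452 CPM in KO, and CEACAM5 was at 0 counts. KRT19 carried most of this difference in the sum, with 2243 and 1744 CPM in WT and 1206 and 1083 CPM in KO. The other 7 markers summed to 340.9 and 372.4 CPM in WT and 316.3 and 368.4 CPM in KO, but did not all behave alike. KRT18 had 59.0 and 116.7 CPM in WT and 97.7 and 136.0 CPM in KO. CDH1 had 306 and 198 counts in WT and 143 and 180 in KO, and CDX2 had 46 and 44, then 56 and 0. Scaled to library size, EPCAM and CDH1 were lower in both KO libraries, as were 23.5% of all tested genes. KRT19 passed an adjusted p of 0.05 by DESeq2 (adjusted p = 0.00298) but not by edgeR (adjusted p = 0.293). DESeq2 called 0.89% of all genes lower. The part of KRT19 in the results below was not tested. Markers of leukocytes, fibroblasts and endothelial cells summed to at most 2.62 CPM per list in any library, and PTPRC, CD3E, COL1A2, LUM and VWF were at 0 counts in all 4.

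YWHAQ, which encodes 14-3-3 theta, was low in both KO libraries. Its estimated counts were 611 and 469 in WT replicates 1 and 2 and 71 and 90 in KO replicates 1 and 2, or 47.1 and 38.4 CPM against 6.42 and 5.28 CPM. The groups did not overlap, and the lower WT library lay far above the higher KO library. The mean went from 42.7 ± 6.13 to 5.85 ± 0.800 CPM (SD, n = 2 each), a level 7.31-fold lower (log2 fold change -2.87, SE 0.21). When each library was left out in turn the log2 fold change ran from -3.01 to -2.72. YWHAQ RNA was thus low but still detected in each KO library.

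Among all 12269 tested genes, YWHAQ had the 86th lowest log2 fold change. Of the 3711 genes with a WT mean at or above that of YWHAQ, 4 had a lower log2 fold change. Both ranks are descriptions, since YWHAQ was chosen for its low KO level and the cut used the WT level alone. The 4 genes were NRIP1, a corepressor of nuclear receptors (log2 fold change -8.42), the ribosomal pseudogenes RPL22P1 (-3.82) and RPL36AP37 (-3.03), and a row named 7SK (-3.14). In RPL22P1, RPL36AP37 and 7SK the WT libraries differed from each other by 17.9-fold, 13.2-fold and 4.55-fold. Those of NRIP1 differed by 1.04-fold and those of YWHAQ by 1.23-fold.

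**Figure D1:**
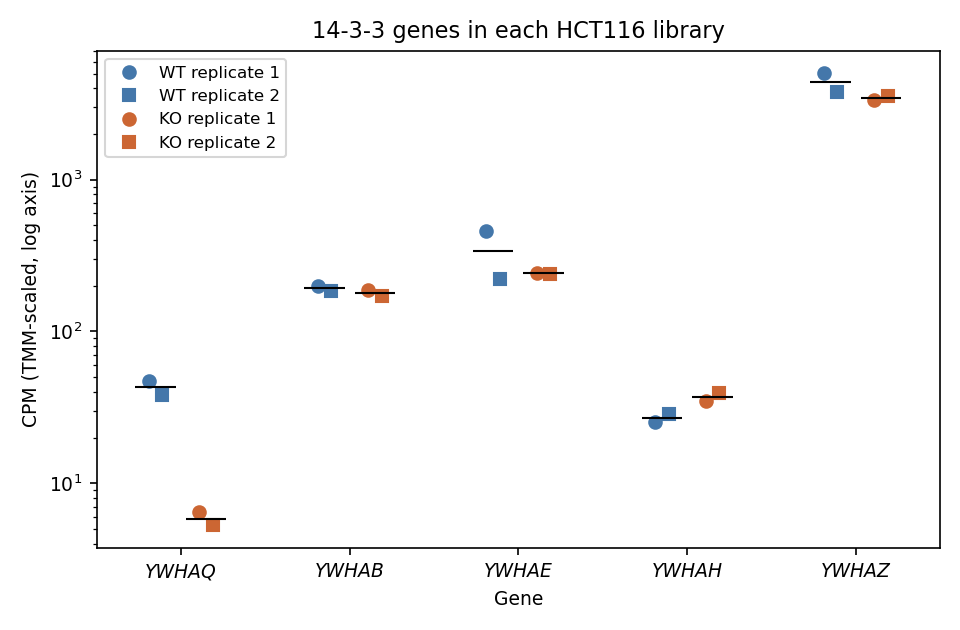
Level of the 5 measured 14-3-3 genes in each library, as CPM on a log axis; circles are replicate 1, squares replicate 2, and black lines group means. For YWHAQ the KO libraries (6.42 and 5.28 CPM) lie far below the WT libraries (47.1 and 38.4 CPM), for YWHAH they lie above, and for YWHAE WT replicate 1 (458.2 CPM) stands apart from the other 3 libraries.

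Processed pseudogenes are copies of spliced transcripts, and 14-3-3 genes have many, so reads could in principle be shared between a gene and its copies. The table held 25 rows named as pseudogenes of the measured members, of which 11 had a count in any library, and the highest single count was 11. The 8 YWHAQ pseudogene rows together had 1 and 1 counts in WT and 0 and 1 in KO, all from YWHAQP7. The count missing from YWHAQ in KO was therefore not found in those rows. YWHABP1 and YWHABP2 together had 0 and 1 counts in WT and 8 and 2 in KO. YWHAEP5 and YWHAEP7 together had 5 and 1 in WT and 0 and 1 in KO. For YWHAZ, the rows YWHAZP2, YWHAZP3, YWHAZP4, YWHAZP5, YWHAZP6 and YWHAZP10 summed to 19 and 5 counts in WT and 16 and 20 in KO. The antisense row YWHAH-AS1 had 1 count, in WT replicate 1. In each library these sums were small beside the count of the parent gene.

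The start regions of YWHAQ and YWHAH, the members with the lowest and the highest KO level relative to WT, are shown because a topoisomerase that resolves R-loops is thought to act near gene starts, where G- and C-rich sequence favours them. Both are from RefSeq (GRCh38.p14), 5′ to 3′ on the strand of the gene, and end just before the outermost gene start in GENCODE 29. Capitals mark GGGCGG and its reverse complement CCGCCC, the core of the GC box bound by SP1. The first lies at chr2:9631015-9631247 on the minus strand and the second at chr22:31944285-31944460 on the plus strand.
YWHAQ: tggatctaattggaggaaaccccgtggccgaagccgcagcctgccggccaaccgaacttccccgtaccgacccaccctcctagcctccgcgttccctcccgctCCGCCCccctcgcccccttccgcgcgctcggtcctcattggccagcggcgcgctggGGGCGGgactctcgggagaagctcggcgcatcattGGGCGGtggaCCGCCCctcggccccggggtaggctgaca
YWHAH: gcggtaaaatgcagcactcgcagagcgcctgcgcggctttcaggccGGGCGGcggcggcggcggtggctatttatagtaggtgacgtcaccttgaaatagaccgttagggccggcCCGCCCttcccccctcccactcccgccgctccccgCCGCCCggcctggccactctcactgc

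Of the 5 measured members, 4 were matched in the promoter table by symbol and described here. Over the full window of 300 bases (250 before the start and 50 after), the YWHAQ promoter was 69.7% G and C with 34 CpG pairs, and that of YWHAH 73.7% with 44. YWHAB had 70.7% with 29 pairs and YWHAE 70.3% with 36. The median of all 35114 promoters was 58.7% with 14. Each of the 4 windows held GGGCGG on at least 1 strand, as did 45.0% of all promoters: YWHAQ had 4 matches, YWHAB 4, YWHAH 3 and YWHAE 1. TATAAA was found in the YWHAH window and in none of the other 3 (11.5% of all promoters, either strand), and ACGTG, the core of the hypoxia response element, in none of the 4 (21.4% of all). YWHAQ had the lowest G and C share of the 4 by a small margin, and its number of CpG pairs lay between those of YWHAB and YWHAE. YWHAZ was not among the 4. A link between these sequences and the KO levels was not tested. The G-over-C skew, (G - C)/(G + C) on the gene's strand, was -0.09 for YWHAQ, -0.10 for YWHAH, -0.03 for YWHAE and -0.26 for YWHAB. All 4 skews were below the median of all promoters of 0.01.

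YWHAH, which encodes 14-3-3 eta, was the measured member with a higher level in KO. It had 329 and 347 counts in WT and 386 and 665 in KO, or 25.4 and 28.4 CPM against 34.9 and 39.0 CPM. Both KO libraries lay above both WT libraries, a position that 23.5% of all tested genes shared. The mean was 26.9 ± 2.17 CPM in WT and 37.0 ± 2.95 CPM in KO (SD, n = 2 each), a ratio of 1.37 (log2 fold change 0.46, SE 0.16). The difference did not pass after adjustment over all genes (edgeR adjusted p = 0.420; DESeq2 adjusted p = 0.614). Its unadjusted edgeR p was 0.0343, where 11.2% of all tested genes had an unadjusted p under 0.05. The 95% interval of the ratio, not adjusted for the number of genes, ran from 1.04 to 1.83.

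YWHAB, the gene of 14-3-3 beta, was the steadiest member. It stood at 198.3 and 185.7 CPM in WT and 186.7 and 172.4 CPM in KO, and the groups overlapped. Its log2 fold change of -0.10 (SE 0.12) had an adjusted p of 0.744 in edgeR and 0.993 in DESeq2. The 95% interval of the KO to WT ratio was 0.762 to 1.15, so a rise of YWHAB above 1.15-fold lay outside it.

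YWHAE, the gene of 14-3-3 epsilon, was set mainly by 1 library. It had 458.2 CPM in WT replicate 1, 220.2 CPM in WT replicate 2, and 244.5 and 240.9 CPM in KO. The KO libraries lay between the WT libraries, which were 2.08-fold apart. With all libraries its log2 fold change was -0.48 (SE 0.35), with an adjusted p of 0.607 in edgeR and 0.791 in DESeq2. Without WT replicate 1 it turned to 0.14 (edgeR adjusted p = 0.806), and without WT replicate 2 it was -0.90 (edgeR adjusted p = 0.0110), so the direction rested on which WT library was kept.

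YWHAZ, which encodes 14-3-3 zeta and is often overexpressed in carcinomas, was the most abundant member by far. It reached 5024 and 3780 CPM in WT and 3361 and 3543 CPM in KO, with both KO libraries below both WT libraries, as in 23.5% of all tested genes. The group means were 4402 ± 880 and 3452 ± 129 CPM (SD, n = 2 each). This gave a log2 fold change of -0.35 (SE 0.19), with an adjusted p of 0.526 in edgeR and 0.628 in DESeq2 and a 95% interval of the ratio from 0.557 to 1.104. Without WT replicate 1 the log2 fold change was -0.13 (edgeR adjusted p = 0.725) and without WT replicate 2 it was -0.53 (edgeR adjusted p = 0.0152).

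Of the 4 members tested beside YWHAQ, edgeR called 0 and DESeq2 called 0, with 1 at an unadjusted edgeR p under 0.05. Over all genes edgeR called 1 gene of 12269 (0.00815%) and DESeq2 called 183 of 13258 (1.38%), so at this background no call among 4 genes says little. The groups did not overlap in 2 of these 4 members (YWHAH and YWHAZ), against 47.0% of all tested genes. No other measured isoform therefore rose past the threshold while YWHAQ was low, and a rise of YWHAH by up to 1.83-fold stayed within its interval.

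**Figure D2:**
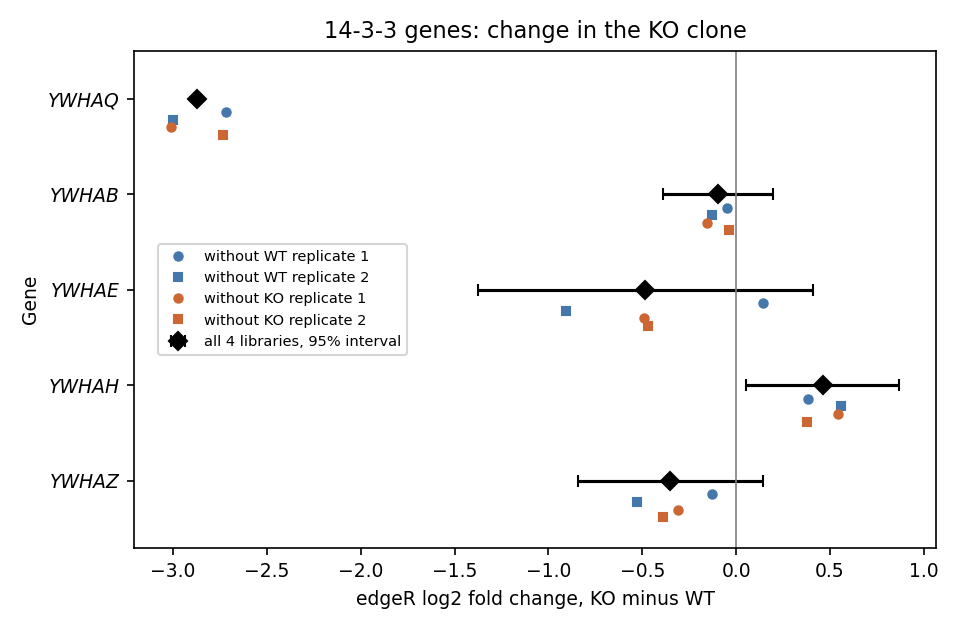
edgeR log2 fold change (KO minus WT) of the 5 measured 14-3-3 genes; diamonds give all 4 libraries, bars the 95% interval of the 4 tested members (none for YWHAQ, which was not tested), smaller points the value with 1 library left out. YWHAQ stays between -3.01 and -2.72 and YWHAH between 0.38 and 0.56, while YWHAE runs from -0.90 to 0.14 depending on the WT library left out.

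The family as a whole was not higher in KO. The summed level of the 5 members was 5753 and 4253 CPM in WT and 3834 and 4001 CPM in KO, a log2 ratio of group means of -0.35. Without WT replicate 1 that log2 ratio was -0.12, and both KO sums still lay below WT replicate 2. The sum is mostly YWHAZ, which took 87.3% and 88.9% of the family's counts in WT and 87.7% and 88.6% in KO. Without YWHAZ the other 4 members summed to 728.9 and 472.8 CPM in WT and 472.5 and 457.6 CPM in KO, so that WT replicate 2 and KO replicate 1 were almost equal.

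Shares of the family's counts were set apart between the groups in YWHAQ and YWHAH, the least abundant members, and were not tested. YWHAQ gave 0.818% and 0.903% of family counts in WT and 0.167% and 0.132% in KO. For YWHAH the share was 0.441% and 0.668% in WT and 0.910% and 0.976% in KO. In both genes the shares of the 2 groups did not overlap, in opposite directions. In CPM, the groups did not overlap in 47.0% of all tested genes. The shares of YWHAB (3.45% and 4.37% in WT, 4.87% and 4.31% in KO), of YWHAE (7.96% and 5.18%, then 6.38% and 6.02%) and of YWHAZ overlapped between groups. These shares hold the same YWHAQ counts by which the family was chosen and are given as a description.

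**Figure D3:**
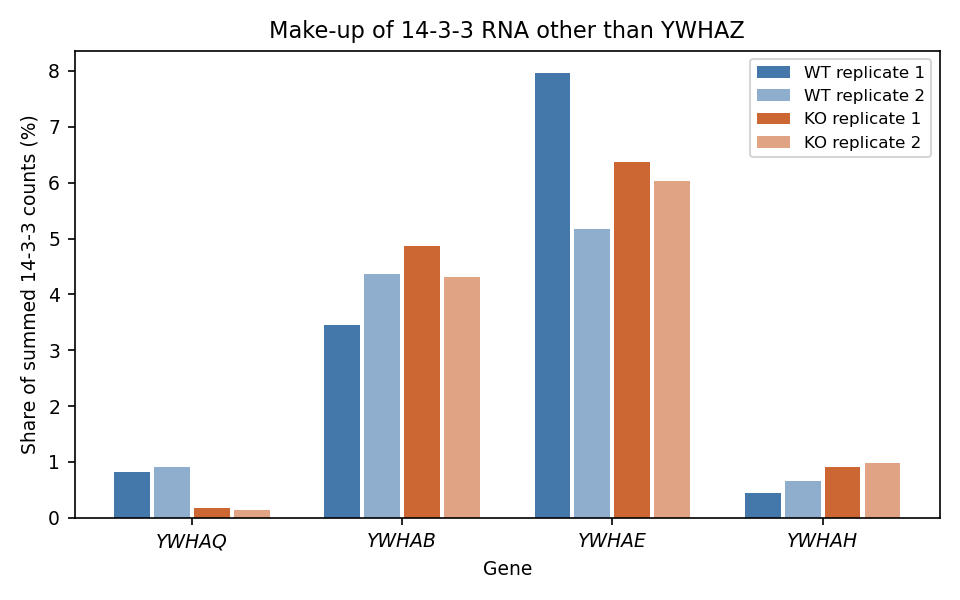
Share of the summed counts of the 5 measured 14-3-3 genes (percent) held by YWHAQ, YWHAB, YWHAE and YWHAH in each library; YWHAZ, at 87.3% to 88.9%, is left out of the plot. The bars of YWHAQ are lower in KO (0.167% and 0.132%) than in WT (0.818% and 0.903%), and those of YWHAH are higher.

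Levels of different genes can be set side by side only per length. CPM values were divided by the longest coding transcript of GENCODE 29, from 1.88 kb for YWHAH to 5.25 kb for YWHAZ. On this scale the WT order was YWHAZ (957.4 and 720.3 CPM per kb), YWHAE (207.2 and 99.6), YWHAB (63.8 and 59.7), YWHAQ (21.2 and 17.3) and YWHAH (13.5 and 15.1). The ranges of neighbours in this order did not overlap. In KO the last pair changed places, with YWHAH at 18.6 and 20.8 and YWHAQ at 2.90 and 2.38 CPM per kb. The ratio of YWHAH to YWHAQ was 0.635 and 0.873 in WT and 6.41 and 8.71 in KO. In means, YWHAQ was lower by 16.6 CPM per kb in KO (difference -16.6) and YWHAH higher by 5.36. On this scale the 2 genes together were lower in KO.

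The deposited RPKM (counts scaled to library size and gene length) give other orders for 2 pairs. There YWHAQ stood at 1.16 and 1.15 RPKM in WT and 0.195 and 0.161 RPKM in KO, and YWHAH at 1.81 and 2.46 RPKM in WT and 3.09 and 3.44 RPKM in KO, so YWHAH was the higher of the 2 in every library. The length behind the authors' RPKM was 34.7 kb for YWHAQ and 12.0 kb for YWHAH, closer to the genomic spans of 47.0 kb and 13.1 kb than to the transcripts of 2.22 kb and 1.88 kb. YWHAB was above YWHAE in 3 of the 4 libraries on the RPKM scale (10.95 against 11.9 RPKM in WT replicate 1, 12.4 against 6.93 in WT replicate 2, 12.7 against 7.85 in KO replicate 1 and 11.7 against 7.70 in KO replicate 2), where per transcript length YWHAE was above YWHAB in each. The orders of YWHAQ with YWHAH and of YWHAB with YWHAE therefore depend on the length used. In RPKM, YWHAH was higher in KO by about as much as YWHAQ was lower. These RPKM differ from the values per transcript kb in library scaling as well as in length. They carry no TMM factor, which was 0.858 for WT replicate 1. The 2 scales therefore do not show whether length alone decides if YWHAQ and YWHAH together were lower in KO. YWHAZ was first on both scales, with 153.3 to 185.4 RPKM against 0.161 to 12.7 RPKM in the other members.

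The genes nearest to YWHAQ on chromosome 2 had log2 fold changes between -0.91 and 0.94, against -2.87 for YWHAQ. YWHAQ (ENSG00000134308.13) lies on the minus strand. The only gene that overlapped it in GENCODE 29 was a small noncoding RNA on the other strand with no row in the table. The 3 nearest tested genes on each side were ADAM17, IAH1 and CPSF3 beyond its 3′ end, and TAF1B, GRHL1 and KLF11 beyond its start. ADAM17, the protease that sheds growth factors and cytokines from the cell surface, has its start at -74.3 kb from that of YWHAQ and was barely measured, with 11 and 25 counts in WT and 7 and 15 in KO. IAH1, an esterase, had 29.5 and 27.6 CPM in WT and 17.4 and 18.2 CPM in KO (log2 fold change -0.68, SE 0.16; adjusted p of 0.316 in edgeR and 0.294 in DESeq2). TAF1B, a factor of RNA polymerase I, had 4.55 and 7.53 CPM in WT and 12.3 and 10.9 CPM in KO (log2 fold change 0.94, SE 0.33; adjusted p of 0.420 in edgeR and 0.517 in DESeq2). The log2 fold changes of CPSF3, which cleaves pre-mRNA at its 3′ end, GRHL1, an epithelial transcription factor, and KLF11, a zinc finger factor, were 0.02, -0.24 and 0.18. Of the 6 neighbours edgeR called 0, with IAH1 and TAF1B at an unadjusted p under 0.05 in opposite directions, and DESeq2 called 0. Over all tested genes 11.2% had such an unadjusted p, and edgeR called 0.00815% and DESeq2 1.38%.

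**Figure D4:**
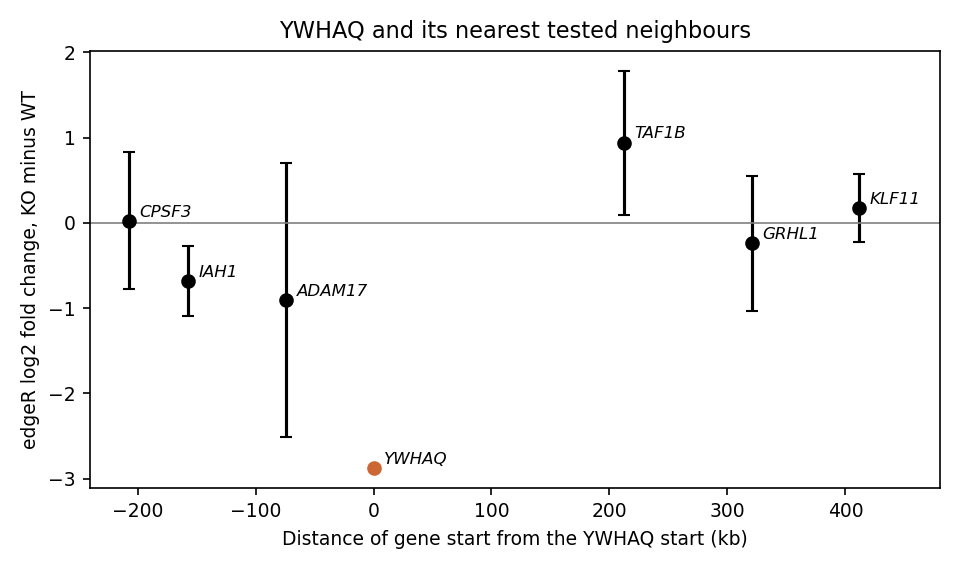
edgeR log2 fold change (KO minus WT) of YWHAQ, without an interval, and of the 3 nearest tested genes on each side, with 95% intervals, against the distance of each gene's start from the YWHAQ start in kb (GENCODE 29; negative values lie towards the 3′ end of YWHAQ). YWHAQ is at -2.87, and the 6 neighbours lie between -0.91 and 0.94.

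The genes whose pattern over the 4 libraries lay nearest to that of YWHAQ (Euclidean distance between centred log2(CPM + 0.5)) were LPAR5, FZD3, ZNF551, PTGFRN and MAPK8IP1, at distances of 0.292 to 0.359. FZD3, a WNT receptor, had 25.9 and 24.7 CPM in WT and 4.70 and 3.05 CPM in KO. MAPK8IP1, the JNK scaffold JIP1, had 22.5 and 23.6 CPM in WT and 2.62 and 2.76 CPM in KO. ZNF551, a zinc finger protein, had 12.3 and 10.1 CPM in WT and 1.27 and 1.47 CPM in KO. LPAR5, a receptor for lysophosphatidic acid, had 40 and 38 counts in WT and 0 in both KO libraries, and PTGFRN, a membrane protein of the immunoglobulin family, had 46 and 25 counts in WT and 0 in both KO libraries. Their nearness on this scale depends on the 0.5 CPM added before the logarithm. With 4 libraries in 2 groups, likeness to YWHAQ mostly means a similar KO to WT ratio.

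Client proteins of 14-3-3 had log2 fold changes on both sides of 0, and none passed the threshold. Of 47 clients listed, 44 had a row and 40 were tested, and by edgeR and by DESeq2 0 of them were called in either direction. At an unadjusted edgeR p under 0.05 there were 2 higher and 1 lower, or 7.5% of the clients tested against 11.2% of all tested genes. Of the 40, 24 had a log2 fold change above 0 and 16 below, with a median of 0.06 against -0.01 over all tested genes. In 14 clients both KO libraries lay above both WT libraries and in 5 below, together 47.5% of those tested against 47.0% of all tested genes. By direction these were 35.0% above and 12.5% below, against 23.5% each over all tested genes. The range was from -1.03 for FOXO4, a transcription factor held in the cytoplasm by 14-3-3 after AKT phosphorylation, to 0.84 for RPTOR. The FOXO4 value rested on KO replicate 2, with 37 and 28 counts in WT and 27 and 3 in KO (SE 1.07), and was -0.08 without that library.

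RPTOR, the mTORC1 subunit raptor, which 14-3-3 binds after phosphorylation by AMPK, had the smallest p among the clients. Its level was 21.1 and 20.1 CPM in WT and 32.0 and 41.7 CPM in KO, with no overlap (log2 fold change 0.84, SE 0.19; adjusted p of 0.304 in edgeR and 0.123 in DESeq2). SSH1, the cofilin phosphatase slingshot, stood at 75.4 and 77.2 CPM in WT and 99.03 and 101.9 CPM in KO (log2 fold change 0.40 with SE 0.11 and an edgeR adjusted p of 0.367). CDC25B, a phosphatase that starts mitosis and is kept inactive by 14-3-3, stood at 139.9 and 115.2 CPM in WT and 96.9 and 88.8 CPM in KO (log2 fold change -0.46 with SE 0.15 and an edgeR adjusted p of 0.393). CRTC3, a coactivator of CREB, had 12.1 and 12.0 CPM in WT and 19.6 and 15.3 CPM in KO (log2 fold change 0.53 with SE 0.22 and an edgeR adjusted p of 0.462). These 4 genes were named for having the smallest p in the list. In each of them the groups did not overlap, as in 47.0% of all tested genes, and none passed the adjustment over all genes.

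Among 23 kinases that write 14-3-3 binding sites, 22 had a row and 18 were tested. edgeR called 0 of them, with 1 higher and 2 lower at an unadjusted p under 0.05 (16.7% against 11.2% of all tested genes), and DESeq2 called 1, lower, where it called 0.89% of all genes lower and 0.49% higher. The median log2 fold change was 0.02, with 9 members on each side of 0. RPS6KA1, the ERK-activated kinase RSK1, fell by DESeq2 (adjusted p = 0.000109), while its edgeR adjusted p was 0.260. Its level was 84.4 and 43.1 CPM in WT and 15.4 and 18.4 CPM in KO (log2 fold change -1.91, SE 0.36), so the WT libraries were 1.96-fold apart and both lay above KO. Its relative RPS6KA3 (RSK2) was near the limit of measurement, at 1.93 and 1.39 CPM in WT and 0.361 and 0.528 CPM in KO (log2 fold change -1.85 with SE 0.53 and an edgeR adjusted p of 0.373), where 3 counts correspond to 0.176 to 0.271 CPM.

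The other kinases with small p were PRKD2, a protein kinase D, and SGK1, a kinase related to AKT. PRKD2 had 57.9 and 60.8 CPM in WT and 89.4 and 71.9 CPM in KO (log2 fold change 0.44 with SE 0.15 and an edgeR adjusted p of 0.420). SGK1 had 4.85 and 4.50 CPM in WT and 2.98 and 2.17 CPM in KO (log2 fold change -0.87 with SE 0.36 and an edgeR adjusted p of 0.464). AKT1, AKT2 and CHEK1, a checkpoint kinase that phosphorylates CDC25 proteins, had log2 fold changes of 0.09, 0.12 and -0.04.

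**Figure D5:**
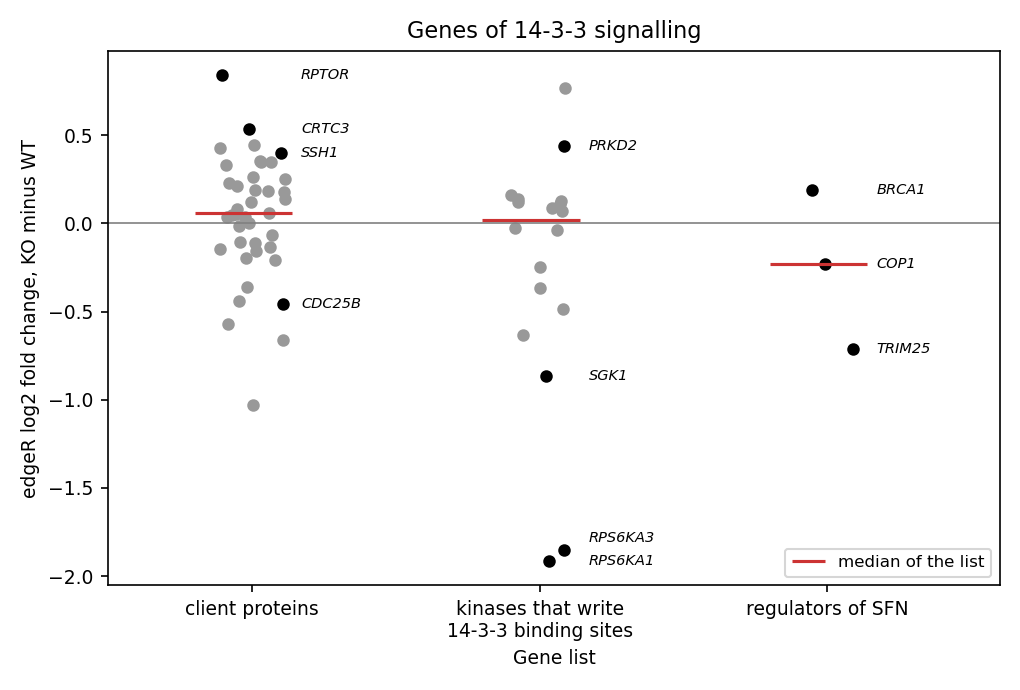
edgeR log2 fold change (KO minus WT) of the tested 14-3-3 clients (40 genes), kinases that write 14-3-3 binding sites (18) and regulators of SFN (3); each point is a gene, black points are the named genes and red lines the list medians. Most clients and kinases lie within 0.5 of 0, with RPS6KA1 (-1.91) and RPS6KA3 (-1.85) lowest.

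SFN itself was not analysed here, and of 4 listed regulators of it 3 were tested. edgeR and DESeq2 called 0 of them, with 1 lower at an unadjusted edgeR p under 0.05, where 6.21% of all tested genes were lower at that p. The median log2 fold change was -0.23 against -0.01 over all tested genes. TRIM25, the ubiquitin ligase that targets sigma for degradation, had 34.9 and 23.5 CPM in WT and 17.3 and 18.3 CPM in KO (log2 fold change -0.71 with SE 0.24 and an edgeR adjusted p of 0.410). COP1, another ubiquitin ligase for sigma, and BRCA1, a DNA repair protein that acts at the SFN promoter, had log2 fold changes of -0.23 and 0.19 (edgeR adjusted p = 0.533 and 0.665). TP63 was at 1, 1, 1 and 0 counts and was not tested.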

How the data were processed

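Per library, the authors deposited whole-number estimated counts per gene and RPKM values. The submitters' processing notes name Salmon 1.10.1 and the build hg19; the sources used here do not give annotation, gene summary or filters. Counts were used as deposited. Estimated counts divide shared reads between similar sequences, so genes with copies are uncertain. Genes were tested with the quasi-likelihood test of edgeR 4.0.16 (under R 4.3.3, with limma 3.58.1; TMM, filterByExpr, genotype only) with Benjamini-Hochberg adjustment over all tested genes and a threshold of 0.05. DESeq2 1.42.0 (Wald test) was an alternative. CPM are counts over the library size times the TMM factor, and SE is the log2 fold change over the square root of F. The fits were checked on simulated counts. GENCODE 29 (GRCh38) gave identifiers, lengths and gene order; 88.8% of rows matched by symbol, so an unmatched neighbour would be missed. Its build differs from hg19. Named in each list were the 4 genes with the smallest edgeR p and any called. FOXO4, AKT1, AKT2, CHEK1, KRT19 and the genes ranked with YWHAQ were named after their values were seen. 1 gene of the lists is not reported here. The family and lists were chosen with earlier results of these data known. The other alternatives were RLE scaling, no filter on low counts, a replicate block and leaving out each library.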

Additional observations from a re-analysis of the deposited data

How the results depend on the processing

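The number of genes called was 1 with edgeR, 183 with DESeq2, 34 with no filter on low counts, and 0 to 575 when each library was left out in turn. Of the 4 members tested beside YWHAQ, 0 were called by edgeR with all libraries and 0 to 2 when a library was left out, the 2 being YWHAE and YWHAZ without WT replicate 2. With a library left out, YWHAE ran from -0.90 to 0.14, above 0 only without WT replicate 1. The median of the client list was 0.058 with all libraries, 0.063 with DESeq2, 0.081 with no filter and 0.072 to 0.151 with a library left out. Leaving out a library gave medians of -0.11 to 0.14 for the kinases and of -0.299 to -0.139 for the regulators of SFN (-0.46 with no filter), and a log2 ratio of the summed family of -0.55 to -0.12. The YWHAQ share of family counts differed by -0.711 percentage points (KO minus WT), or by -1.48 per transcript length and -0.753 to -0.669 with a library left out. RPS6KA1 passed with DESeq2 and without WT replicate 2 (edgeR adjusted p = 0.00484). Where values moved, the cause was not tested, except that leaving out libraries or the filter changes the samples or genes fitted. RLE scaling changed no call or direction among the members and named genes. The labels do not say that same-numbered libraries were paired, although their column headers carry adjacent S numbers. The deviations of replicate 1 from the group means had r = 0.06 between groups, across 12269 genes. With the replicate block 1 gene and 0 of the 4 members were called, YWHAQ had -2.87 and YWHAH 0.46, and the client median was 0.046. With 2 libraries a group, small differences such as that of YWHAH could not be told from no difference.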
